A study of Caenorhabditis elegans with 4 samples.

Results

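Of the 1033 reproducible binding peaks of the transcription factor CES-1 in whole L4 larvae of *Caenorhabditis elegans*, 749 lay on the 5 autosomes, and 433 of these had their summit in the promoter window of an annotated gene. That window covers 1000 bp before and 200 bp after each annotated transcript start (5′ end), and genes of all classes other than piRNAs were used. Reproducible peaks are those that the authors retained after the irreproducible discovery rate (IDR) step, which compares ranked peak lists between libraries. The 433 promoter peaks were set beside the 316 other autosomal IDR peaks, the 132 IDR peaks in promoter windows of the X chromosome, and 8222 weaker autosomal promoter regions, which are regions of the list called on all libraries pooled that overlapped no IDR peak.

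Chromatin immunoprecipitation with sequencing (ChIP-seq) was done in a single strain, OP174, whose genotype is unc-119(ed3) with the integrated transgene wgIs174, which carries ces-1 fused to TY1, EGFP and FLAG tags and an unc-119 rescue copy. The worms were of mixed sex, and 4 biological replicates were analysed, with no second genotype or condition. Because whole larvae were used, signal from all tissues is mixed, and occupancy in few cells cannot be told apart from weak occupancy in many. For replicates 1 and 2 the labels state a fragment size range of 150 to 350 bp; for replicates 3 and 4 they state microtip sonication instead. Each library was given as its 30000 strongest regions, with a signal score whose scale is not stated, and read depths are unknown.

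CES-1 is a zinc finger protein of the Snail family, known in *C. elegans* for keeping certain cells of the pharyngeal nervous system from undergoing apoptosis. Factors of this family bind the E-box CAGGTG in other animals and mostly act as repressors. In *C. elegans* many genes are trans-spliced, so that an annotated 5′ end is often the splice site of a leader RNA rather than the place where transcription begins. Many neighbouring genes are transcribed away from each other from a shared intergenic stretch. A promoter is here called divergent where the summit lies in the windows of a forward and a reverse gene whose 5′ ends point apart. Any annotated 5′ end counts, so such a summit can also lie inside a gene.

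The strongest promoter peaks are shown first, because they set the range of sequence and gene types in the group. Each line gives the 101 bases centred on the summit of one of the 8 strongest peaks on chromosomes II to V outside annotated UTRs, on the plus strand of ce11 (WBcel235; genome sequence from RefSeq), named for the gene of the nearest 5′ end. Capitals mark the words GAGCGC or ACACGC or CGTCTC or CGCTCC or AGAGAG on either strand, which were chosen after their frequencies in the peaks were seen.
unc-42 chrV:9765789-9765889: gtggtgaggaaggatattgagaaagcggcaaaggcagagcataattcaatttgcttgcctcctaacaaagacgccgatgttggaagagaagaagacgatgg
unc-42 chrV:9769552-9769652: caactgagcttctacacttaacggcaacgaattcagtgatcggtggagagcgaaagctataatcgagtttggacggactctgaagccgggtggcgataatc
F46B6.16 chrV:9768995-9769095: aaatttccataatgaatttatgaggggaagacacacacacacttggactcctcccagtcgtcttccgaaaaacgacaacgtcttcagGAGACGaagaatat
rpl-3 chrIII:3867533-3867633: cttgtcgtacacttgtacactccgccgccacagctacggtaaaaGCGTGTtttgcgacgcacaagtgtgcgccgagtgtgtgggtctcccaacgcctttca
cdc-48.1 chrII:10563512-10563612: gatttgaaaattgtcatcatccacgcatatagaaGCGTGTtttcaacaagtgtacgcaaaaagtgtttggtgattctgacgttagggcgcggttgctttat
rpl-35 chrIII:7854649-7854749: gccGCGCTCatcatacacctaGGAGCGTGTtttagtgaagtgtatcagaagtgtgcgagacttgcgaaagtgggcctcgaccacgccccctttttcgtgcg
F31F7.6 chrV:6267557-6267657: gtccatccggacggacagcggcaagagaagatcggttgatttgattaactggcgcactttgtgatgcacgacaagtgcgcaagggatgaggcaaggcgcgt
unc-42 chrV:9768113-9768213: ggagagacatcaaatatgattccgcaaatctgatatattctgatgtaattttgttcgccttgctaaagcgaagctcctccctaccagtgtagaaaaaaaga

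The 3 peaks named for unc-42 held none of these words. The peaks of rpl-3, cdc-48.1 and rpl-35 each held GCGTGTTTT, the reverse complement of AAAACACGC, with AAGTGT within the same printed bases. GCGTGTTTT was present on either strand in 4 of the 433 promoter peaks (0.924%), in 2 of the 316 other autosomal IDR peaks (0.633%) and in 14 of the 8222 weaker promoter regions (0.170%). All 4 of those promoter peaks also held AAGTGT, against 0 of the other autosomal IDR peaks and 2 of the weaker promoter regions. These letters were picked from the printed peaks, so their counts describe them only. The fourth peak, at cox-5A, a gene for a subunit of cytochrome c oxidase, is printed to complete the set.
cox-5A chrIII:12905152-12905252: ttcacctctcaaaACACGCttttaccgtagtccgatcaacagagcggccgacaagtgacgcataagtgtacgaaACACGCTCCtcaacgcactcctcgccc

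A further set shows the peaks in which several of the 5 words stood together, again with the words in capitals. These are the 5 strongest peaks that held at least 3 of the words, lay on chromosomes II to V outside annotated UTRs and were not printed above.
iff-2 chrII:8561395-8561495: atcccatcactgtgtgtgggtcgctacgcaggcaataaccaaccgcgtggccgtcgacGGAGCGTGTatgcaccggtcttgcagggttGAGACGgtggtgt
rft-2 chrV:4450662-4450762: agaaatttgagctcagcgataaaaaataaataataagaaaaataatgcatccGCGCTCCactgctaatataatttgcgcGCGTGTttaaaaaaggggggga
F26F4.14 chrIII:4899831-4899931: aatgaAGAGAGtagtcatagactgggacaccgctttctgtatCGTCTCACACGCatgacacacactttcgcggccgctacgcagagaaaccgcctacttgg
cel-mir-5595 chrII:14399722-14399822: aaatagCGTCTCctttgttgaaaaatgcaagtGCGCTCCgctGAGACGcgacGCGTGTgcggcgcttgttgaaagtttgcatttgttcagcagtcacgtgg
efl-1 chrV:16965820-16965920: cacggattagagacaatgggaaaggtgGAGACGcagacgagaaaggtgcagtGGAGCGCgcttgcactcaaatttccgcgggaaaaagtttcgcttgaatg

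Overlapping words shared letters in some of these windows, as in the run GGAGCGTGT at iff-2, the gene for the translation factor eIF5A, where CGCTCC and ACACGC on the opposite strand ran into each other. The peak of cel-mir-5595, a microRNA gene divergent from the chromatin remodelling gene nurf-1, held 4 of the words. At efl-1, the gene for an E2F-type cell cycle factor, 3 words lay in the 101 bases. Among all 433 promoter peaks, 227 (52.4%) held none of the 5 words, 134 (30.9%) held 1 and 59 (13.6%) held 2.

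The signal scores of the promoter peaks spanned 44.2 to 723.2 in the pooled scale of the IDR list, with a median of 57.1 and quartiles of 49.5 and 75.4. The score helped to choose the IDR peaks, so its gap to weaker regions is a description. The lowest promoter peak scored 44.2, at unc-40, the netrin receptor gene, and the highest weaker promoter region scored 44.1. Other autosomal IDR peaks had a median of 61.4, and IDR peaks in X promoter windows one of 55.7. Of the 433 promoter peaks, 200 (46.2%) scored above the median of the whole IDR list, 59.2. Signal was unrelated in rank to GC content (Spearman rho = -0.0075 across the 433 peaks). It was also unrelated to the distance from the 5′ end (rho = -0.0047). With peak width the coefficient was negative (rho = -0.36), but width hardly varied. The median width was 344 bp, and only 31 of the 433 peaks were narrower than this. All 31 scored above 59.2, so the coefficient rests on few peaks and shows no general trend. The 3 strongest peaks were wider, at 370, 418 and 403 bp. All of these correlations are across regions of the same libraries, and regions are not independent replicates.

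The 2 strongest promoter peaks were both assigned to unc-42 (WBGene00006778), which encodes a homeobox factor known for setting the identity of several neuron types. The strongest, at chrV:9765607-9765976, scored 723.2 and had its summit 849 bp upstream of the nearest unc-42 5′ end, inside an intron of a protein-coding gene. Its best overlapping region scored 218, 291, 71.9 and 153 in replicates 1 to 4 and ranked 9, 4, 6 and 10 among the 30000 regions of each list. A second unc-42 peak scored 638.1, lay 211 bp upstream between genes, and ranked 14, 5, 7 and 8. The third scored 190.4 at 411 bp upstream and ranked 41, 24, 65 and 38. These distances refer to different annotated 5′ ends of unc-42, so they do not place the peaks at a shared promoter. The summits, in order of signal, lay at chrV positions 9765839, 9769602 and 9768163. No other gene was nearest to 3 promoter peaks. The third strongest peak, with a score of 348.9, lay between the second and the third unc-42 peak, 17 bp inside the non-coding RNA gene F46B6.16. It ranked 21, 16, 23 and 15, so that all 4 peaks of this stretch stood in the first 65 ranks of every library.

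Below unc-42, genes for ribosomal proteins supplied several of the strongest peaks. The peak upstream of rpl-3, for a protein of the large ribosomal subunit, scored 318.3 at 271 bp upstream and ranked 26, 23, 25 and 16 in replicates 1 to 4. A peak between rpl-12 and lin-54, whose product is a DNA-binding subunit of the DREAM repressor complex, scored 227.4, at 43 bp from rpl-12 and 350 bp from lin-54. It ranked 33, 21, 206 and 34, with replicate 3 apart from the others. The peak at rpl-35 scored 221.3 at 435 bp upstream and ranked 45, 38, 35 and 27. The peak between Y17G9B.5 and rpl-20 scored 190.0, and its 5′ ends lay 175 and 287 bp away. Single and divergent promoters were thus both among the highest scores.

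Other strong peaks belonged to genes of unlike function. The peak upstream of cdc-48.1, which encodes an ATPase that extracts ubiquitylated proteins, scored 257.8 and ranked 98, 17, 18 and 21, so replicate 1 stood apart. At par-1, the gene for a cell polarity kinase, the summit lay 193 bp inside the transcript, in an intron, and the score was 187.7. The peak of hif-1, the gene for the hypoxia-inducible factor, scored 159.0 at 113 bp upstream and ranked 210, 46, 165 and 52. That of aha-1, which encodes the dimerisation partner of HIF-1, scored 108.6 at 128 bp upstream and ranked 196, 153, 185 and 178. Peaks also lay at unc-104, the gene for a kinesin that carries synaptic vesicle precursors (score 122.9, 137 bp upstream), and within the 5′ UTR of gar-2, which encodes a muscarinic acetylcholine receptor (score 141.3, 36 bp downstream).

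The summits were concentrated near 5′ ends. Their median distance was 166 bp, with quartiles of 74 and 308 bp, against 265 bp (106 and 581 bp) in weaker promoter regions. A summit in the windows of several genes was given the nearest 5′ end, which shortens its distance. Only 56.4% of promoter peaks lay in a single gene's window, against 76.2% of weaker promoter regions. The medians were 219 against 339 bp in single-gene windows and 128 against 132 bp in divergent ones. How much of the gap comes from this mix was not tested. X promoter IDR peaks had a median of 180 bp (48.8 and 494.5 bp), with 38.6% within 100 bp and 33 of 132 farther than 500 bp. Within 100 bp of a 5′ end lay 140 promoter peaks (32.3%), against 24.0% of weaker promoter regions, and within 200 bp lay 257 (59.4%), against 43.2%. Farther than 500 bp lay 63 promoter peaks (14.5%), against 30.6% of weaker promoter regions. Upstream summits made up 343 of the promoter peaks (79.2%) and 82.4% of weaker promoter regions. The fullest stretch of 200 bp was the one just upstream of the 5′ end, with 167 peaks (38.6%), followed by 99 peaks (22.9%) from 400 to 200 bp upstream and 90 (20.8%) downstream. The median signal of the 6 such stretches ranged only between 54.5 and 59.1.

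**Figure D1:**
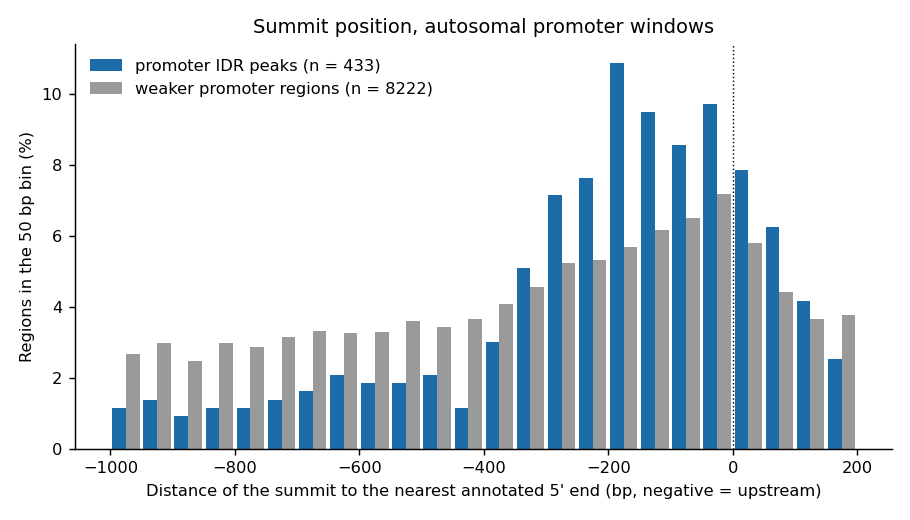
Share of the 433 promoter IDR peaks (blue) and of the 8222 weaker promoter regions (grey) in each 50 bp bin of the distance between summit and nearest annotated 5′ end; negative distances are upstream. The blue bars exceed the grey ones between 350 bp upstream and 150 bp downstream and lie below them elsewhere; the medians are 166 and 265 bp.

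The nearest and the farthest peaks overlapped in signal. The summit of cwn-2, a Wnt ligand gene, lay at a distance of 0 bp and scored 44.7, near the lowest score of 44.2, and that of ints-4, for a subunit of the Integrator complex, lay 1 bp upstream and scored 57.0. The peaks of vps-36, for a subunit of the ESCRT-II sorting complex, and of T27D1.4, a non-coding RNA gene, lay 980 and 996 bp upstream and scored 71.6 and 55.8. Also among the extremes were C50F4.18, 1 bp upstream with a score of 49.8, and the transfer RNA gene WBGene00008135, 972 bp upstream with 47.8. At the edges of the window, 5 promoter peaks lay 950 to 1000 bp upstream, 11 lay 150 to 200 bp downstream, and 10 of the other autosomal IDR peaks lay no more than 50 bp outside it.

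Each library was then examined by itself, since the position of a region was not used to rank it. The IDR step used these same lists, however. Of the 433 promoter peaks, 259, 287, 150 and 227 overlapped one of the first 1000 regions in replicates 1 to 4. The strongest regions are thus partly the same places as the promoter peaks. Comparisons of strongest with weaker regions in each library are therefore no independent support. Autosomal promoter regions of a library were divided into its 500 strongest and the rest. The median distance among the 500 strongest was 165.5, 159, 182.5 and 170.5 bp in replicates 1 to 4, against 251, 270, 286 and 292 bp among the rest. The groups did not overlap between any libraries, and the difference averaged -105 ± 15.2 bp (SD, n = 4). The number of genes at a summit was not held equal between the groups. An exact two-sided sign-flip permutation test over the 4 libraries gave p = 0.13, from 2 of 16 sign assignments, the smallest value that 4 libraries allow, so no comparison of this kind could pass 0.05. In all, 21 such comparisons were computed; 18 reached p = 0.13 by this exact test, which became 0.146 after Benjamini-Hochberg adjustment over the 21.

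Divergent promoters were frequent among the promoter peaks. A single gene's window held the summit of 244 peaks (56.4%), divergent genes that of 144 (33.3%, 95% Wilson interval 28.98 to 37.8%, covering counting error only), and several genes in another arrangement that of 45 (10.4%). Divergent arrangements made up 20.5% of X promoter IDR peaks and 17.9% of weaker autosomal promoter regions. When only protein-coding genes were used, 106 of the 433 promoter peaks (24.5%) were divergent, against 2.27% of X promoter IDR peaks and 10.4% of weaker promoter regions. Of the 333 promoter peaks with a protein-coding gene in the window, these made up 31.8%. The same share was 4.17% for X promoter IDR peaks and 13.2% for weaker promoter regions. In single libraries the divergent share among the 500 strongest was 31.2, 36.2, 22.4 and 27.6% in replicates 1 to 4, against 17.6, 18.05, 15.3 and 16.1% among the rest. It was higher in the strongest regions of 4 of 4 libraries, by 12.6 ± 4.59 percentage points (SD, n = 4; exact sign-flip permutation p = 0.13). Replicates 1 and 2 had the higher shares among the strongest regions, and fragmentation and replicate cannot be told apart in these libraries.

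Both partners were protein-coding in 92 of the 144 divergent pairs, and in 29 pairs a non-coding RNA gene of the class ncRNA faced a protein-coding gene. The 5′ ends of a pair lay a median of 480.5 bp apart (quartiles 268 and 726 bp). The summit lay between them in 111 pairs (77.1%) and beyond one of them in the others. Among protein-coding pairs, the peak between drr-2 and set-16, which encodes a histone methyltransferase of the MLL type, scored 107.5 and lay 146 and 200 bp from their 5′ ends. The peak shared by aha-1 and C25A1.15 lay 128 and 196 bp away, and that shared by Y49F6B.2 and the collagen gene col-71 scored 180.3 and lay 128 and 270 bp away.

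Distances were also set beside each other within each arrangement, with no test of the difference between arrangements. Single-gene peaks had a median distance of 219 bp, against 339 bp in weaker single-gene regions. Divergent peaks had one of 128 bp, against 132 bp in weaker divergent regions, and 2.78% of them lay farther than 500 bp, against 10.3%. Peaks with several genes in another arrangement had a median of 88 bp, against 115.5 bp in such weaker regions. A divergent summit has more than 1 window to be near, so distances of divergent and single peaks are not compared. Median signal was 56.3 for divergent and 58.2 for single-gene peaks. The best region of divergent peaks had a median rank of 731.5, 649.5, 2852.5 and 975.5 in replicates 1 to 4, against 687.5, 639, 2497 and 961 for single-gene peaks. The difference, 106 ± 167 ranks (SD, n = 4), put divergent peaks at the weaker rank in 4 of 4 libraries (exact sign-flip permutation p = 0.13). Without replicate 3 it was 23 ranks, and with protein-coding genes only 489.6 ranks over the 4 libraries (exact permutation p = 0.25).

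**Figure D2:**
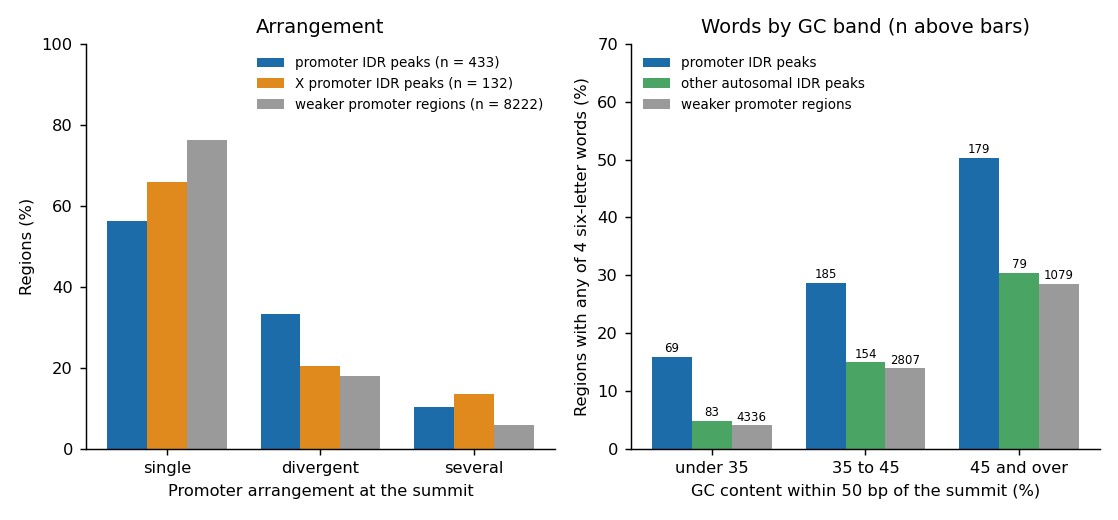
Left, percentage of regions with a single, a divergent or another multiple promoter arrangement, for the 433 promoter IDR peaks, the 132 X promoter IDR peaks and the 8222 weaker promoter regions; 33.3, 20.5 and 17.9% were divergent. Right, percentage of regions with any of the 4 words rich in G and C (AGAGAG left out) by GC content within 50 bp of the summit, with the number of regions above each bar. The promoter IDR peaks, from which the words were picked, are highest in all 3 bands.

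The gene of the nearest 5′ end was protein-coding for 288 promoter peaks (66.5%), and a non-coding RNA gene of some class for 142 (32.8%), against 22.8% of weaker promoter regions and 59.1% of X promoter IDR peaks. The class ncRNA, mostly short transcripts of unknown role, supplied 107 peaks. Of the 1943 autosomal genes of this class with a pooled region in the window, 164 (8.44%) had a promoter peak there, close to the 7.37% of all 9095 autosomal genes with such a region. The 107 genes had a median length of 143 bp, 38 of the 107 lay inside a protein-coding gene, and 32 of the 107 summits were also in the window of a protein-coding gene. Counting any gene whose window held the summit, 333 peaks (76.9%) had a protein-coding gene, against 78.5% of weaker promoter regions. The 3 peaks nearest to pseudogenes included 2 with no other gene in the window. Over the libraries, the share nearest to a non-coding RNA gene among the 500 strongest promoter regions was 34.0, 30.8, 31.6 and 33.0%, against 22.3, 22.7, 21.7 and 21.4% among the rest. The difference of 10.4 ± 1.70 percentage points (SD, n = 4) had the same sign in 4 of 4 libraries (exact sign-flip permutation p = 0.13).

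Small nucleolar RNA (snoRNA) genes, whose products guide chemical modification of ribosomal RNA, were nearest to 19 peaks, 18 of which lay within 100 bp of the 5′ end (94.7%), against 36.2% of the weaker regions nearest to snoRNA genes. The strongest were at T19B4.8, with a score of 116.5 at 9 bp upstream, at M7.15, with 87.9 at 6 bp upstream, and at ZK994.7, with 78.2 at 9 bp upstream. The peak of M7.15 ranked 199, 523 and 81 in replicates 1, 2 and 4 and had no region in replicate 3. Over the 19 snoRNA peaks the median rank was 1131, 2536, 933 and 405 in replicates 1 to 4. All promoter peaks had medians of 703, 646, 2486 and 905. The snoRNA peaks thus ranked weaker in replicates 1 and 2 and stronger in 3 and 4, where fragmentation and replicate cannot be told apart. Median GC content at snoRNA peaks was 53.5%, against 39.6% at weaker regions nearest to snoRNA genes. Of the 156 autosomal snoRNA genes with any pooled region in the window, 30 (19.2%) had a promoter peak, against 7.37% of all 9095 autosomal genes with a pooled region there.

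Genes for the SL2 class of spliced leader RNA, which is trans-spliced to downstream genes of operons, lay beside 3 of the strongest peaks. Of the 13 autosomal spliced leader genes with a pooled region in the window, 3 (23.1%) had a promoter peak. The share of all autosomal genes with such a region was 7.37%. A peak 30 bp upstream of sls-2.1 scored 159.4, and its best region ranked 47, 67, 47 and 74 in replicates 1 to 4. The peak at R12E2.18, 95 bp downstream of the 5′ end of sls-2.4, scored 195.0 and ranked 39, 44, 29 and 31. The peak at C17C3.23 had its summit between genes, 129 bp downstream of the 5′ end of sls-2.2. It scored 144.0 and ranked 78, 45, 37 and 69. All 3 stood in the first 78 ranks of every library. A second, overlapping peak at sls-2.1 scored 53.7 and shares its library regions with the first. Near-identical copies of these genes exist, and the handling of reads that match several of them is not stated. Transfer RNA genes were nearest to 3 promoter peaks and microRNA genes to 2. Of the autosomal genes with a pooled region in the window, 7 of 192 transfer RNA genes (3.65%) and 4 of 69 microRNA genes (5.80%) had a promoter peak in it, both below the 7.37% of all such genes. Among the microRNA genes was cel-mir-5549, divergent from rfc-4 and upstream of the elongation factor gene eef-1A.1, with a score of 61.0.

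Gene lists were read against the share of all protein-coding genes with a peak, 448 of 6262, or 7.15%, among those with any pooled region in the promoter window. The lists were chosen with earlier results of these data known and had no test. For divergent counts the base is the 333 promoter peaks with a protein-coding gene in the window, of which 135 were divergent. A divergent peak can enter a list by more than 1 gene. Cytosolic ribosomal protein genes had the highest share, 24 of 67 (35.8%), all with the summit upstream, a median of 322 bp before the 5′ end. Upstream summits are common, with 263 of the 288 promoter peaks nearest to a protein-coding gene (91.3%). The 23 peaks of ribosomal protein genes, 1 of them shared by 2 genes, had a median signal of 67.0. Of these, 15 were divergent, and 22 were found in all 4 libraries. In replicates 1 to 4 their median rank was 365, 431, 1078 and 455, against 703, 646, 2486 and 905 over all promoter peaks. Mitochondrial ribosomal protein genes had a peak in 6 of 39 cases (15.4%), among them mrps-17, with a score of 66.9.

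Genes for chaperones, proteins that assist folding, had a peak in 12 of 42 cases (28.6%). The strongest lay in a window shared by F26D10.23 and hsp-1, the constitutive HSP70 gene, at a score of 114.4 and 350 bp upstream of hsp-1. It was followed by dnj-25, with 110.3, and the divergent window of Y22D7AL.10 and hsp-60, the mitochondrial chaperonin gene, with 92.8. Of the 12 chaperone peaks, 8 were divergent, against 135 of the 333 promoter peaks with a protein-coding gene in the window. Oxidative phosphorylation genes had a peak in 10 of 44 cases (22.7%), led by cox-5A with a score of 112.5, 289 bp upstream. Genes of the V-ATPase, the proton pump of acidic organelles, had one in 3 of 14 cases, namely vha-8, unc-32 and vha-13.

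Among regulatory and cell division genes, cell cycle and DNA replication genes had a peak in 11 of 59 cases (18.6%) and chromatin and histone genes in 11 of 74 (14.9%). Of the 11 cell cycle peaks, 9 were divergent, against the same 135 of 333. The peak of scc-2, which encodes a cohesin loading factor, scored 116.0 at 158 bp upstream. At the histone H4 gene his-37 the score was 112.3 at 61 bp upstream, where near-identical histone genes could share reads. The peak of ash-2, for a subunit of histone H3 lysine methyltransferase complexes, scored 94.1 and ranked 354, 65, 125 and 2890, with replicate 4 apart. Membrane traffic genes had a peak in 12 of 83 cases (14.5%), splicing and RNA processing genes in 8 of 60 (13.3%) and translation factor and tRNA synthetase genes in 6 of 51 (11.8%).

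The remaining lists lay on both sides of the background share. Genes of the ubiquitin and proteasome list had a peak in 10 of 137 cases (7.30%), neuropeptide and insulin genes in 2 of 27 (7.41%), homeobox genes in 2 of 31 (6.45%), and cuticle collagen genes in 2 of 34 (5.88%). Nuclear hormone receptor genes had one in 0 of 82 cases (0%). The 2 homeobox genes were unc-42, with the strongest promoter peak of all, and ceh-24, named after its value was seen, with a score of 57.1. Neuronal function genes had a peak in 5 of 37 cases (13.5%). All 6 of their peaks lay in single-gene windows, as did 176 of the 333 promoter peaks with a protein-coding gene in the window. The basic helix-loop-helix list, with 3 of 13 genes (23.1%), consisted of hif-1, aha-1 and hlh-11, and the body wall muscle list, with 2 of 12 (16.7%), of cap-2 and unc-60.

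**Figure D3:**
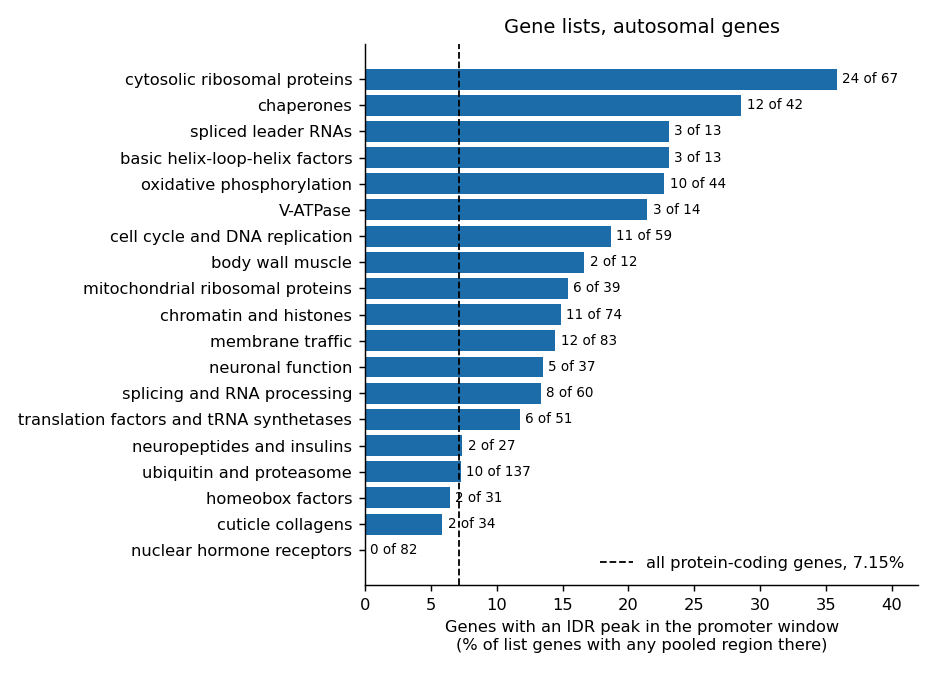
Percentage of the autosomal genes of each list with an IDR peak in their promoter window, among list genes with any pooled region there; counts stand at the bars. The dashed line is the 7.15% of all protein-coding genes, and the bars run between 35.8% for cytosolic ribosomal proteins and 0% for nuclear hormone receptors.

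The base composition at the summits differed between groups. Within 50 bp of the summit, the promoter peaks had a median GC content of 43.6% (quartiles 37.6 and 49.5%), against 40.6% at other autosomal IDR peaks, 41.6% at X promoter IDR peaks and 34.7% at weaker promoter regions. In single libraries the 500 strongest promoter regions had medians of 43.6, 41.6, 38.6 and 38.6% in replicates 1 to 4, against 35.6, 34.7, 34.7 and 33.7% in the rest. The difference was 5.94 ± 1.81 percentage points (SD, n = 4) and positive in 4 of 4 libraries (exact sign-flip permutation p = 0.13). GC content can alter the recovery of fragments during library preparation; its part in the ranks was not tested.

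Of all 2080 six-letter words, a word and its reverse complement counted once, the 5 words marked in the sequences above were among the 10 whose share in the promoter peaks most exceeded that in weaker promoter regions; the other 5 consisted of A and G alone on one strand, as AGAGAG does. The word GAGCGC was within 50 bp of the summit of 56 promoter peaks (12.9%), against 2.22% of other autosomal IDR peaks, 3.79% of X promoter IDR peaks and 2.93% of weaker promoter regions. ACACGC was at 51 promoter peaks (11.8%), against 3.80% of other autosomal IDR peaks, 6.06% of X promoter IDR peaks and 2.31% of weaker promoter regions. CGCTCC was at 10.4% of promoter peaks, against 2.53% of other autosomal IDR peaks, 3.03% of X promoter IDR peaks and 2.64% of weaker promoter regions. The share with CGTCTC was 14.1% in promoter peaks, against 9.49% in other autosomal IDR peaks, 7.58% in X promoter IDR peaks and 4.85% in weaker promoter regions. AGAGAG differed in kind: it was at 19.2% of promoter peaks, against 24.7% of other autosomal IDR peaks, 18.9% of X promoter IDR peaks and 7.93% of weaker promoter regions.

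Any of the 4 words other than AGAGAG was present at 154 promoter peaks (35.6%), against 16.1% of other autosomal IDR peaks, 16.7% of X promoter IDR peaks and 10.6% of weaker promoter regions. Words rich in G and C are more frequent where GC content is higher, so the groups were also compared within bands of GC content. The words had been picked for their excess in these same peaks over these weaker regions. An excess within the bands therefore only describes them. Below 35% GC, 15.9% of 69 promoter peaks held one, against 4.82% of 83 other autosomal IDR peaks and 4.06% of 4336 weaker promoter regions. From 35 to 45% GC the shares were 28.6% of 185 promoter peaks, 14.9% of other autosomal IDR peaks and 13.9% of weaker promoter regions. At 45% GC and over they were 50.3% of 179 promoter peaks, 30.4% of other autosomal IDR peaks and 28.5% of weaker promoter regions. Divergent promoter peaks held one in 68 of 144 cases (47.2%) and single-gene peaks in 68 of 244 (27.9%), while weaker regions had 15.2% in divergent and 9.62% in single-gene windows. The divergent share was likewise higher in promoter peaks than in weaker regions within each band, at 27.5, 29.7 and 39.1% of promoter peaks with rising GC content, against 15.2, 18.3 and 27.7% of weaker regions.

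The words were also counted at the summit of the best region of each library in place of the pooled summit. GAGCGC was then at 12.3, 10.5, 8.31 and 8.71% of promoter peaks in replicates 1 to 4, against 3.55, 2.85, 2.83 and 2.92% of other autosomal IDR peaks. The difference of 6.93 ± 1.57 percentage points (SD, n = 4) was positive in 4 of 4 libraries (exact sign-flip permutation p = 0.13). For AGAGAG the difference was -7.92 ± 0.843 percentage points and negative in 4 of 4 libraries, with the same p of the exact permutation test. These summits belong to the same peaks from which the words were picked, so they are no independent support.

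The E-box CAGGTG was rare at the promoter peaks. It was within 50 bp of 3 summits (0.693%), against 0.633% of other autosomal IDR peaks, 1.52% of X promoter IDR peaks and 2.25% of weaker promoter regions. The 3 peaks, named after their values were seen, were those of C47E8.4, in a window shared with hsp-90, of pqn-70 and of C50F4.18. In single libraries CAGGTG was at 1.0, 1.4, 0.8 and 1.2% of the 500 strongest promoter regions, against 2.48, 2.39, 2.70 and 2.04% of the rest, a difference of -1.30 ± 0.481 percentage points (SD, n = 4; exact sign-flip permutation p = 0.13). Of the 10 distinct E-box words, which share the form CANNTG, the most frequent at the promoter peaks was CAAGTG, in 44 (10.2%), against 5.38% of other autosomal IDR peaks, 6.82% of X promoter IDR peaks and 4.29% of weaker promoter regions. Of the common promoter words, TATAAA was at 5.08% of promoter peaks and 11.9% of weaker promoter regions, CCAAT at 21.5% of promoter peaks and 20.04% of weaker promoter regions, and TTTTTT at 32.3% of promoter peaks and 48.01% of weaker promoter regions. TTTCAG, the consensus of nematode 3′ splice sites, was at 7.39% of promoter peaks and 17.9% of weaker promoter regions.

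Library support was broad but uneven. Of the 433 promoter peaks, 357 (82.4%) overlapped a region in all 4 libraries and 76 in 3; the IDR step used these lists, so this describes its outcome. The region was missing for 3, 5, 60 and 8 peaks in replicates 1 to 4. The median rank was 703, 646, 2486 and 905, and 259, 287, 150 and 227 peaks stood in the first 1000 regions, 68 of them (15.7%) in all 4 libraries. Replicate 3 thus stood apart, with the lowest support and the weakest ranks. Among the 20 strongest promoter peaks the ranks departed most at enu-3.1, whose best region ranked 42, 76, 554 and 370. The strongest peaks without a region in every library were those of glr-5, the gene for an ionotropic glutamate receptor subunit (score 95.7), nmad-1, M7.15, znf-207 and kcc-2, the gene for a potassium-chloride cotransporter, and all 5 lacked it in replicate 3.

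**Figure D4:**
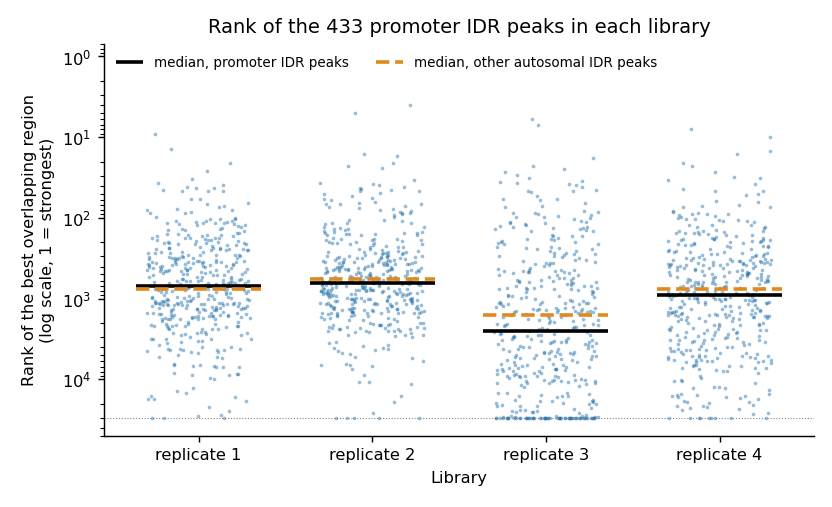
Rank of the best overlapping region for each of the 433 promoter IDR peaks (points) in the 4 libraries, on a log scale with the strongest rank at the top; the dotted line is where peaks without a region are placed. Black bars are the medians of the promoter peaks (703, 646, 2486 and 905), and dashed orange bars those of the other autosomal IDR peaks (762.5, 572, 1610.5 and 752).

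The ranks were also set beside those of the other autosomal IDR peaks, whose medians were 762.5, 572, 1610.5 and 752. The difference, 261 ± 419 ranks (SD, n = 4), was smaller than its spread between libraries, and promoter peaks had the weaker rank in 3 of 4 (exact sign-flip permutation p = 0.25). It was 55.8 ranks without replicate 3. Among peaks above the median signal of the IDR list it was -73.9 ranks, with the stronger rank on the side of the promoter peaks. Across the 433 peaks the ranks of any pair of libraries were weakly related, with Spearman's rho between 0.24 and 0.33 as a description. The best region's summit lay a median of 25, 17, 39 and 33 bp from the pooled summit in replicates 1 to 4.

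**Figure D5:**
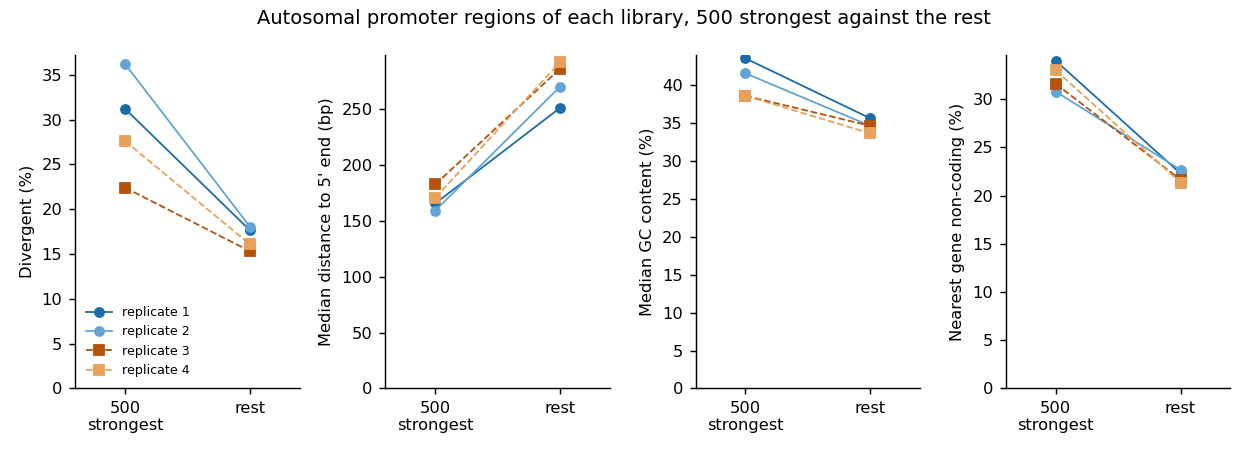
Autosomal promoter regions of each library, its 500 strongest against the rest, by the percentage divergent, the median distance to the nearest 5′ end in bp, the median GC content and the percentage whose nearest gene is non-coding; each line is 1 replicate. All 4 lines of a panel run the same way, with mean differences of 12.6 points, -105 bp, 5.94 points and 10.4 points.

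All autosomes contributed. Chromosomes I to V held 89, 71, 79, 82 and 112 promoter peaks, or 5.90, 4.65, 5.73, 4.69 and 5.35 per Mb. As a share of all pooled autosomal promoter regions they made up 5.69, 4.45, 5.30, 4.47 and 5.16%. The divergent share was 22.3% on chromosome V and lay between 34.1 and 40.8% on the others, and support by all 4 libraries ran between 79.3 and 88.8%.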

How the data were processed

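ChIP-seq of whole L4 larvae was deposited as peak lists in narrowPeak layout for 4 biological replicates, for their pool and for an IDR step. No source used here gives the aligner, the peak caller, its settings or the IDR threshold; the control library was not used here. The signal score of each region is the authors' deposited value on an unstated scale, and it served to describe and rank regions within a list. The deposited −log10 q-value is at its maximum for 79.9% of the 433 peaks and was not used for ranking. Read depth is unknown, so precision comes from the spread over 4 libraries, and 0 measurement columns were left out.

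Coordinates are ce11 (WBcel235), 1-based. Genes came from Ensembl release 115; piRNA genes were left out. A summit was divergent where the windows of a forward and a reverse gene both held it, with the reverse gene's 5′ end at or to the left of the forward gene's. A library supported a peak where any region overlapped it by at least 1 base, and a peak without a region was given rank 30001. Word searches covered 50 bp on each side of a summit and both strands. Tests were exact two-sided sign-flip permutations over libraries. The steps were tested on simulated data. Python 3.11.15, numpy 2.4.6, pandas 2.3.3, scipy 1.17.1 and matplotlib 3.10.9 were used. The peaks, gene lists and words were chosen with earlier results of these data known. Named peaks were the 20 strongest, the strongest 3 of each list and gene class, the nearest, farthest and weakest 3, the strongest 5 not found in every library, and those of the 3 genes with most peaks; sequences were printed for the strongest peaks on chromosomes II to V outside annotated UTRs.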

Additional observations from a re-analysis of the deposited data

Results flagged for a closer look

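Among 43 groups of 4 library values tested, 6 held a value set apart from the other 3 by Dixon's criterion, which chance alone meets in about 1 of 20 groups. The median rank of the promoter peaks was 2486 in replicate 3, against 646 to 905 in the others. The excess of the AGAGAG share in the 500 strongest promoter regions over the rest was 13.4 percentage points in replicate 1. The rank difference between divergent and single-gene peaks was 355.5 in replicate 3. Single peaks were also set apart: cdc-48.1 by its rank of 98 in replicate 1, the rpl-12 and lin-54 peak by its rank of 206 in replicate 3, and C37A2.8 by its rank of 23 in replicate 4, which there was the stronger one. Replicate 3 has fewer of the peaks than the other libraries, and the cause was not tested.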

How the results depend on the processing

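Of 70 alternative values over 14 results, 57 stayed within the limits set for their kind of result (direction and side of the threshold for a tested difference, an interval or 1.5 times otherwise), 12 moved past them and 1 reversed. With only peaks above the median signal of the IDR list, the peaks numbered 200, the median distance was 171 bp, 187 peaks had all 4 libraries, and the rank difference to other autosomal IDR peaks reversed to -73.9. With protein-coding genes only, the divergent share was 24.5% of all 433 peaks, or 31.8% of the 333 peaks with such a gene in the window, and the median distance was 216 bp. With a window of 500 bp upstream to 100 bp downstream the divergent share was 26.8%. Support by all 4 libraries fell to 198 peaks among regions of rank up to 5000 and to 114 up to 2000, by construction. With 25 bp on each side of the summit the CAGGTG share was 0.231% and the GC difference to other autosomal IDR peaks 5.88 points, against 0.995 points with 100 bp; the GAGCGC difference between strongest and weaker regions was 2.85 points with 25 bp and the CAGGTG share 1.85% with 100 bp. Counting any gene in the window, 76.9% of peaks had a protein-coding gene. Leaving out each replicate gave rank differences of 55.8 to 367.5 (promoter minus other peaks) and 23 to 138 (divergent minus single; 489.6 with protein-coding genes only), divergent shares of 10.7 to 14.4 points, distances of -112 to -100 bp, GC differences of 5.28 to 6.60 points, GAGCGC differences of 5.06 to 6.22 points and non-coding differences of 9.90 to 11.1 points; with 3 libraries the smallest p is 0.25. The comparisons of GC content, GAGCGC and non-coding genes between strongest and weaker regions, and the count without pseudogenes, were chosen after seeing the data. No paired analysis was possible because there is 1 group of samples; strongest and weaker regions were compared within each library. The ce10 lists were not run. The sign-flip test over 4 libraries cannot reach p under 0.05, and read depth is unknown.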
